A study of Mus musculus with 6 samples.

Results

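Foxa1, Foxa2, Foxa3, Onecut1, Onecut2, Prox1, Gata4 and Tbx3 are 8 genes for transcription factors that act in the hepatocyte lineage. They were taken by name from the gene count table, where each matched 1 entry among 54532 genes, and all 8 were among the 13706 genes that passed the filter on low counts. Liver RNA from mice aged 5 weeks was sequenced in 3 libraries titled Fam210aHKO, from livers with a hepatocyte-specific knockout of Fam210a, and in 3 libraries titled Ctrl. Fam210a encodes a protein of mitochondria. The sources used here do not give the driver of the hepatocyte-specific deletion, the deleted part of the gene or the alleles carried by Ctrl. The genotype label of Fam210aHKO replicates 2 and 3 names a gene of another number, and the groups were formed from the titles. The labels do not say that each library came from a separate animal, so p-values measure the spread between these libraries, which may in part be technical.

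FOXA proteins are pioneer factors of the forkhead class, which bind their sites in closed chromatin and open liver enhancers for other factors. ONECUT factors join a cut domain to a homeodomain and act in the separation of hepatocytes from bile duct cells. PROX1 is a homeodomain protein needed for hepatoblasts to migrate out of the early liver bud. In the adult liver it is also a co-repressor of nuclear receptors. GATA4 is a zinc finger pioneer factor of early liver endoderm, and TBX3 is a T-box repressor that favours the hepatocyte fate over the biliary fate in mouse hepatoblasts.

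The libraries held 12541465 to 19655235 counts in Fam210aHKO and 12984268 to 16877560 counts in Ctrl. Fam210a itself was at 31.7, 28.6 and 44.2 CPM in Fam210aHKO replicates 1 to 3, against 119, 136 and 162 CPM in Ctrl replicates 1 to 3, where CPM are counts per 1e+06 after TMM scaling (trimmed mean of M-values). Its level in each Fam210aHKO library was thus lower than in each Ctrl library (log2 fold change -1.99, SE 0.194, adjusted p = 4.42e-05, quasi-likelihood test of edgeR). The TMM factors were 1.16 to 1.19 in Fam210aHKO and 0.797 to 0.887 in Ctrl, and scaling by library totals instead moved the median log2 fold change of all tested genes up by 0.45. The summed level of 8 hepatocyte markers was 87715 to 112224 CPM in Fam210aHKO and 153006 to 239103 CPM in Ctrl, so every library held abundant hepatocyte RNA. Alb made up most of this sum in every library, at 68148 to 86553 CPM in Fam210aHKO and 110643 to 183868 CPM in Ctrl. Alb itself was not called by edgeR (adjusted p = 0.449), and its groups overlapped with library totals. TMM-scaled changes are measured against the typical gene, and the value with library totals is given where it ends a call or turns the direction of a factor. In whole liver, fewer cells of a type and less RNA per cell cannot be told apart.

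Of the 8 factors, 3 fell in Fam210aHKO, namely Prox1, Foxa2 and Foxa1, and none rose, at an adjusted p under 0.05 (edgeR quasi-likelihood test, Benjamini-Hochberg adjustment over all tested genes, two-sided). Among all tested genes 27.5% were called, 13.5% lower and 14% higher, and among the 866 tested genes that the table assigns to a transcription factor family 17% were called, 9.35% lower and 7.62% higher. At an unadjusted p under 0.05 the same 3 factors were lower and 0 were higher, while 5322 of all tested genes passed. DESeq2 likewise gave 3 lower and 0 higher, where 1953 of all tested genes were lower and 1853 higher. All Fam210aHKO libraries lay below all Ctrl libraries in CPM for these 3 factors, and this held for 20.7% of all tested genes, beside 22% with Fam210aHKO above Ctrl and 42.7% in either direction. The fitted log2 fold change was negative for 7 of the 8 factors, with a median of -0.47, beside a median of 0.02 over all tested genes and of -0.07 over the transcription factor genes. Scaled by library totals, 1 of the 8 was called lower, Prox1, where 49% of all tested genes were called, 6.33% lower and 42.7% higher, and 36.3% of the transcription factor genes, 2.77% lower and 33.5% higher. The median of the 8 was then -0.02, beside 0.47 over all tested genes. Under that scaling the groups overlapped for Foxa1 and Foxa2 and stayed apart for Prox1. Onecut2 was then higher in every Fam210aHKO library than in any Ctrl library. The share of all tested genes with groups apart was not computed for library totals. With the replicate number as a block 4 of the 8 were lower, Foxa3 being added, where 35.7% of all tested genes were called, 18% lower and 17.8% higher. Without Ctrl replicate 3 the call was left to Prox1 alone, where 1563 of 14023 tested genes were lower. Without Fam210aHKO replicate 3 the count was 4, with Tbx3 added, where 1802 of 13861 tested genes were lower.

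**Figure D1:**
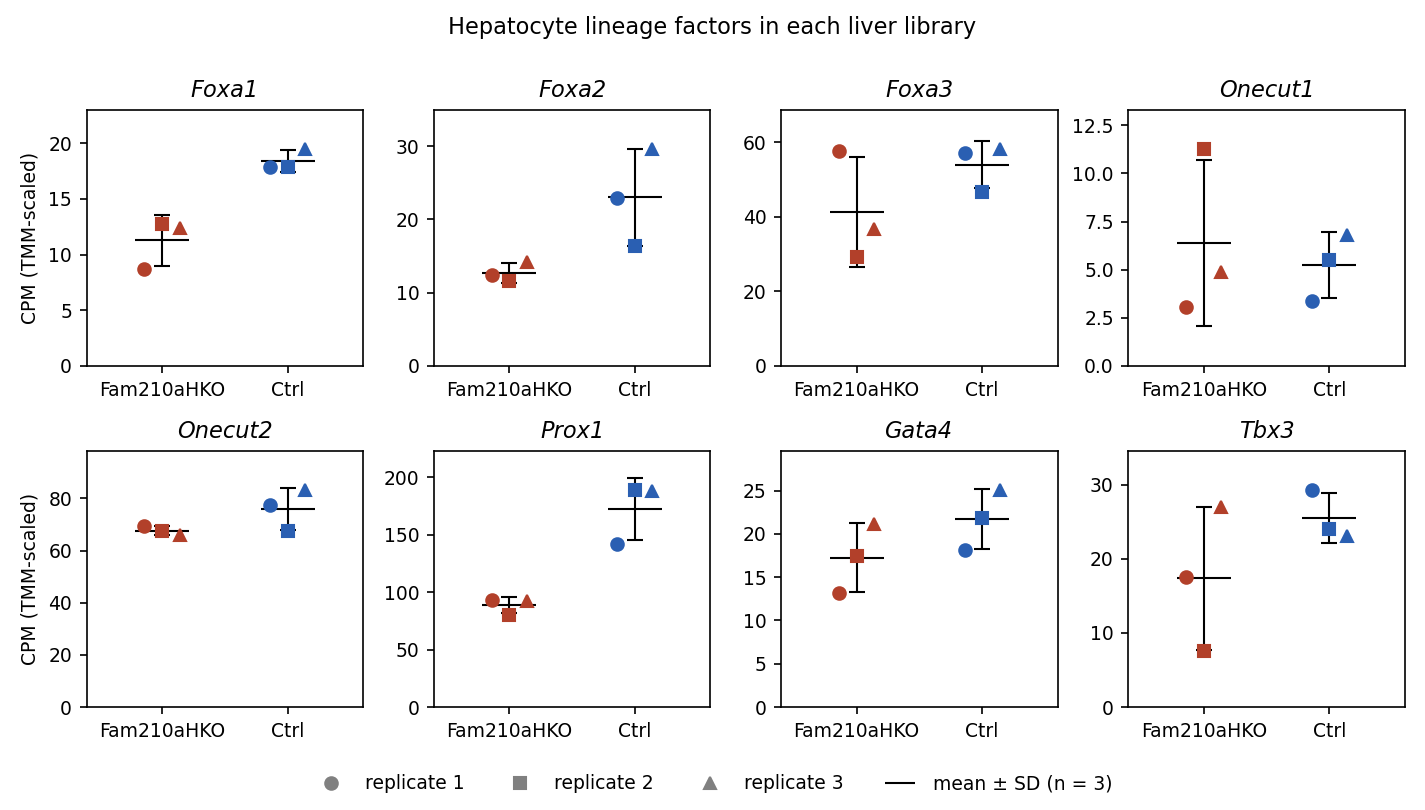
TMM-scaled CPM (vertical axes, from 0) of the 8 factors in each library, 1 panel per gene, with Fam210aHKO in red on the left and Ctrl in blue on the right of each panel. Circles, squares and triangles are replicates 1, 2 and 3, and black bars give the mean and SD (n = 3). The groups are apart for Foxa1, Foxa2 and Prox1 and overlap for the other 5 factors.

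Start-site sequences are shown for the 3 factors that fell, since they are the members whose level passed the test. RefSeq sequences (GRCm38.p6) were used for 5 of the 8 factors. Onecut2 was left out of this step, and no entry was found for Gata4 or Tbx3. Each sequence runs from 250 bases before to 50 bases after the annotated start, 5′ to 3′ on the strand of the gene. Capitals mark the matches found in a search on both strands. The Foxa1 window is chr12:57546062-57546361 on the minus strand, with its start site 805 bp inside the gene as the count table bounds it. The Foxa2 window is chr2:148046920-148047219 on the minus strand, and the Prox1 window is chr1:190170778-190171077 on the minus strand.
Foxa1: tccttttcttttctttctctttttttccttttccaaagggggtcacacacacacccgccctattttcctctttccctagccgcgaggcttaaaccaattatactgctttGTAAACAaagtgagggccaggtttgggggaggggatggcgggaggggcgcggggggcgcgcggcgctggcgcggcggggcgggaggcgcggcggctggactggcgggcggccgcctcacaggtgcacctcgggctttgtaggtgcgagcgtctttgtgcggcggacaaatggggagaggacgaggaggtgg
Foxa2: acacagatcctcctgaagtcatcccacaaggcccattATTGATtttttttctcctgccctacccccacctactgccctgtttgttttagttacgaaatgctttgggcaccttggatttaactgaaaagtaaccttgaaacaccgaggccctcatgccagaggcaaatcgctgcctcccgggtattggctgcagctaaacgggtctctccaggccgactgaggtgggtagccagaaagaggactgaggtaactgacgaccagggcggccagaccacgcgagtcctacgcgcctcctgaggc
Prox1: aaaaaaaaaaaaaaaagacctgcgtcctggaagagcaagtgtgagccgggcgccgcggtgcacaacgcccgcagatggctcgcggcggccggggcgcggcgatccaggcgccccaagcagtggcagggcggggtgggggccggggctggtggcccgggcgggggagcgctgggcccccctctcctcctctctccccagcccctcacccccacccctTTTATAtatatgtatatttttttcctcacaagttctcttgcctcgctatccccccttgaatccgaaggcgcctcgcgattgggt
The Foxa1 window held 1 match to the forkhead word TGTTTAC, on the opposite strand with its first base at position -141 from the start site. This word occurred in 3.65% of 32851 RefSeq windows of the same length. The Foxa2 window held the ONECUT core ATTGAT at position -213 on the gene's strand, a word present in 7.54% of windows. The Prox1 window held TATAAA at position -34 on the opposite strand, a word present in 13.6% of windows. The other words searched were ATCAAAG for TCF/LEF (3.73% of windows), TGATGCA for the ATF4-C/EBP composite (3.15%), AAAGTCC for HNF4 (4.21%) and TTCCCGC for E2F (4.60%), and none of these 4 was found in the Foxa1, Foxa2 or Prox1 window. A match describes the letters of the window and does not show that a factor binds there. The share of G and C was 62.3% for Foxa1, 54.3% for Foxa2 and 64.3% for Prox1, beside a median of 52.7% over all windows.

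The 8 factors spanned a wide range of abundance, and their order per kilobase of transcript was the same in both groups. Foxa3 stood first, at 20.2 ± 7.25 CPM per kb in Fam210aHKO and 26.5 ± 3.15 in Ctrl (mean ± SD, n = 3 each, also below). Prox1 came next, at 10.6 ± 0.849 CPM per kb in Fam210aHKO and 20.6 ± 3.22 in Ctrl. In Ctrl these levels lay within the sum of their SDs, whereas both stood beyond it from Foxa2, the next in order, at 5.36 ± 0.563 CPM per kb in Fam210aHKO and 9.70 ± 2.79 in Ctrl. Onecut2 was at 5.05 ± 0.129 CPM per kb in Fam210aHKO and 5.67 ± 0.600 in Ctrl. Gata4 was at 4.42 ± 1.02 in Fam210aHKO and 5.56 ± 0.884 in Ctrl, and Foxa1 at 3.39 ± 0.680 in Fam210aHKO and 5.53 ± 0.286 in Ctrl, on the same scale. Onecut2, Gata4 and Foxa1 are neighbours whose Ctrl levels did not differ beyond their spread. Tbx3 followed, at 2.62 ± 1.46 CPM per kb in Fam210aHKO and 3.84 ± 0.508 in Ctrl, and Onecut1 was last, at 1.56 ± 1.05 CPM per kb in Fam210aHKO and 1.27 ± 0.417 in Ctrl. Ranked by this level among the 1469 genes that the table assigns to a transcription factor family, Prox1 was 67th in Fam210aHKO and 26th in Ctrl, and Foxa2 was 164th in Fam210aHKO and 77th in Ctrl.

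Foxa1 (ENSMUSG00000035451, chr12:57540628-57546916, mm10, minus strand) encodes a pioneer factor that acts with Foxa2 at the onset of liver development. Its level was 8.66, 12.7 and 12.4 CPM in Fam210aHKO replicates 1 to 3, against 17.8, 17.9 and 19.5 CPM in Ctrl replicates 1 to 3. All Fam210aHKO libraries were below all Ctrl libraries in TMM-scaled CPM, while the groups overlapped with library totals. The TMM-scaled mean was 61.3% of that in Ctrl. edgeR gave a log2 fold change of -0.71 with an SE of 0.187 and an adjusted p of 0.0161. The call ended with library totals (-0.26, adjusted p = 0.282), with totals computed without the 50 most abundant genes (-0.45, adjusted p = 0.0881), with the block on library totals (-0.27, adjusted p = 0.202), without Ctrl replicate 3 (-0.68, adjusted p = 0.0546) and without Fam210aHKO replicate 1 (-0.57, adjusted p = 0.0561).

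Foxa2 (ENSMUSG00000037025, chr2:148042877-148046969, minus strand) encodes the FOXA factor that also controls bile acid and fasting genes in the adult liver. It was at 12.4, 11.6 and 14.2 CPM in Fam210aHKO replicates 1 to 3 and at 23.0, 16.4 and 29.6 CPM in Ctrl replicates 1 to 3. The groups did not overlap in TMM-scaled CPM, but they did with library totals. The Ctrl libraries were widely spread, and the TMM-scaled mean in Fam210aHKO was 55.2% of that in Ctrl. This was a fall by 0.86 on the log2 scale (SE 0.215, adjusted p = 0.0126 by edgeR). It was not called with library totals (-0.42, adjusted p = 0.157), with the block on library totals (-0.37, adjusted p = 0.0857) or without Ctrl replicate 3, the library with the highest level (-0.65, adjusted p = 0.0563).

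Foxa3 (ENSMUSG00000040891, chr7:19013284-19023538, minus strand) is the most abundant of the 3 FOXA genes in both groups per kilobase. It measured 57.7, 29.2 and 36.7 CPM in Fam210aHKO replicates 1 to 3 and 57.2, 46.7 and 58.3 CPM in Ctrl replicates 1 to 3. Fam210aHKO replicate 1 lay within the Ctrl range and the other two lay below it. The log2 fold change of -0.39 (SE 0.225) missed the threshold with an adjusted p of 0.227 by edgeR. It turned to 0.06 with library totals, and it passed the test without Fam210aHKO replicate 1 (-0.73, adjusted p = 0.0162) and in the fit blocked on replicate number (-0.44, adjusted p = 0.0412).

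The balance among the 3 FOXA genes, which does not depend on scaling between libraries, had overlapping groups for each of its ratios. The log2 ratio of Foxa1 to Foxa2 per kilobase was -0.68 ± 0.327 in Fam210aHKO and -0.77 ± 0.370 in Ctrl, a difference of 0.09 (exact permutation test over the 6 libraries, two-sided, p = 0.7). For Foxa1 to Foxa3 the difference was -0.28 (exact permutation p = 0.9). The log2 ratio of Foxa2 to Foxa3 was -1.86 ± 0.499 in Fam210aHKO and -1.48 ± 0.270 in Ctrl, a difference of -0.38 (exact permutation p = 0.4). The smallest p that 3 libraries against 3 allow is 0.1, and none of the 13 ratios computed passed after adjustment over them.

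**Figure D2:**
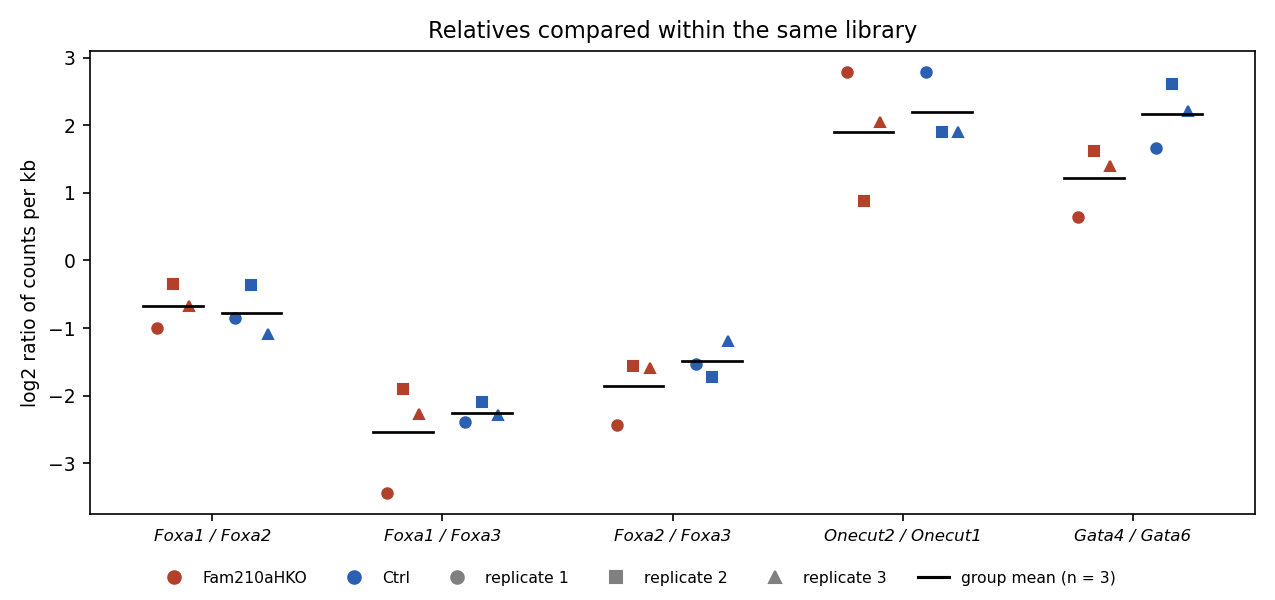
Log2 ratios per kilobase between related factors within each library, with Fam210aHKO in red left of Ctrl in blue, symbols by replicate number and black bars at the group means. Gata4 over Gata6 is the pair whose groups do not overlap, at 0.64 to 1.62 in Fam210aHKO and 1.67 to 2.60 in Ctrl.

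Onecut1 (ENSMUSG00000043013, chr9:74861921-74891781, plus strand), also named HNF6, is the first known ONECUT factor of the liver. Its counts were low and uneven, at 3.06, 11.3 and 4.87 CPM in Fam210aHKO replicates 1 to 3 and at 3.39, 5.52 and 6.79 CPM in Ctrl replicates 1 to 3. Fam210aHKO replicate 2 was the highest of all 6 libraries and the other two lay in or just below the Ctrl range. The fitted difference was 0.27 on the log2 scale (SE 0.424, adjusted p = 0.682 by edgeR), and it turned to -0.40 without Fam210aHKO replicate 2. In GENCODE mouse release 21, 2171 of its 4113 exonic bases (52.8%) also belong to Gm20649, a lincRNA gene of the same strand that had 0 counts in every library. The sources used here do not say how reads shared by both genes were counted, so the level of Onecut1 is uncertain, and the part of this overlap in the result was not tested.

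Onecut2 (ENSMUSG00000045991, chr18:64340364-64398488, plus strand) encodes the other ONECUT factor of the liver and was the steadiest of the 8 in the knockout. It was at 69.4, 67.4 and 65.9 CPM in Fam210aHKO replicates 1 to 3 and at 77.3, 67.4 and 83.3 CPM in Ctrl replicates 1 to 3. The coefficient of variation over replicates was 2.55% in Fam210aHKO and 10.6% in Ctrl. The groups overlapped, and the fitted value was -0.17 on the log2 scale (SE 0.137, adjusted p = 0.393 by edgeR). With library totals it turned to 0.28 (adjusted p = 0.168), and with totals computed without the 50 most abundant genes to 0.09. Scaled by library totals, every Fam210aHKO library lay above every Ctrl library. Onecut3, the remaining ONECUT gene, had 0 counts in every library.

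Prox1 (ENSMUSG00000010175, chr1:190118035-190170714, minus strand) gave the largest change with TMM scaling among the 8 factors and was the one called under every alternative tried. Its level was 93.2, 80.5 and 92.4 CPM in Fam210aHKO replicates 1 to 3, against 142, 189 and 188 CPM in Ctrl replicates 1 to 3. Every Fam210aHKO library was below every Ctrl library, and the mean was 51.3% of that in Ctrl. On the log2 scale Prox1 changed by -0.96 (SE 0.157, adjusted p = 0.00114 by edgeR). Prox1 stayed called lower in all 20 alternative settings tried, with -0.50 (adjusted p = 0.0234) under library totals, and leaving out each library in turn gave values between -1.10 and -0.89.

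Prox1os, an antisense transcript gene at the same locus, moved with Prox1. It was at 3.59, 2.48 and 3.25 CPM in Fam210aHKO replicates 1 to 3 and at 7.57, 9.90 and 6.99 CPM in Ctrl replicates 1 to 3, without overlap. Prox1os changed by -1.38 on the log2 scale (SE 0.237, adjusted p = 0.00157 by edgeR), and by -0.92 with library totals (adjusted p = 0.00765). The exons of the genes share 133 bp, 1.59% of the exonic bases of Prox1. The sources used here do not give the strand setting of the counting, so reads from the shared bases cannot be told apart. Gm28172, a further gene that overlaps the Prox1 locus, had 2 to 12 counts per library in Fam210aHKO and 5 to 19 in Ctrl, too few to be tested.

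Gata4 (ENSMUSG00000021944, chr14:63198922-63271692, minus strand) was at 13.2, 17.5 and 21.1 CPM in Fam210aHKO replicates 1 to 3 and at 18.2, 21.8 and 25.1 CPM in Ctrl replicates 1 to 3. The ranges of the groups overlapped, with 2 Fam210aHKO libraries below all Ctrl libraries and, at the other end, 2 Ctrl libraries above all of Fam210aHKO. The fitted value was -0.33 on the log2 scale (SE 0.203, adjusted p = 0.257 by edgeR), and it turned to 0.12 with library totals. Gata6, the related GATA factor of endoderm, was at 12.1, 8.12 and 11.4 CPM in Fam210aHKO replicates 1 to 3 and at 8.17, 5.11 and 7.73 CPM in Ctrl replicates 1 to 3. Its log2 fold change of 0.59 (SE 0.236) was not called by edgeR (adjusted p = 0.0858), while it was called with library totals (1.04, adjusted p = 0.00650) and with the replicate block (adjusted p = 0.0193).

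The ratio of Gata4 to Gata6 per kilobase within a library was 1.56, 3.08 and 2.64 in Fam210aHKO replicates 1 to 3, against 3.17, 6.08 and 4.63 in Ctrl replicates 1 to 3. All ratios in Fam210aHKO were below all ratios in Ctrl, and the ratio was lower in Fam210aHKO in 3 of 3 same-numbered pairs. On the log2 scale the difference was -0.94, with an exact permutation p of 0.1, the smallest the design allows, and 0.65 after adjustment over the 13 ratios. Of the GATA genes and their FOG cofactors 5 of 8 were tested, and none was called in either direction by edgeR with TMM scaling or by DESeq2, where 1 was higher at an unadjusted p under 0.05.

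Tbx3 (ENSMUSG00000018604, chr5:119670669-119684724, plus strand) was the most uneven of the better counted factors. It was at 17.6, 7.57 and 26.9 CPM in Fam210aHKO replicates 1 to 3 and at 29.3, 24.0 and 23.1 CPM in Ctrl replicates 1 to 3. Fam210aHKO replicates 1 and 2 were below all Ctrl libraries, whereas replicate 3 lay within the Ctrl range. The log2 fold change of -0.55 (SE 0.343) was not called by edgeR (adjusted p = 0.267), and without Fam210aHKO replicate 3 it was -1.01 (adjusted p = 0.0337). The antisense gene Tbx3os1 was at 1.24, 0.757 and 2.24 CPM in Fam210aHKO and at 5.30, 1.70 and 2.08 CPM in Ctrl, and its value of -1.05 on the log2 scale was not called (SE 0.480, adjusted p = 0.132). Cdkn1a, a cell cycle inhibitor gene repressed by TBX3, was at 112 ± 10.7 CPM in Fam210aHKO and 94.9 ± 32.7 CPM in Ctrl (adjusted p = 0.482, edgeR), and it was called higher with library totals (0.69 on the log2 scale, adjusted p = 0.0258).

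**Figure D3:**
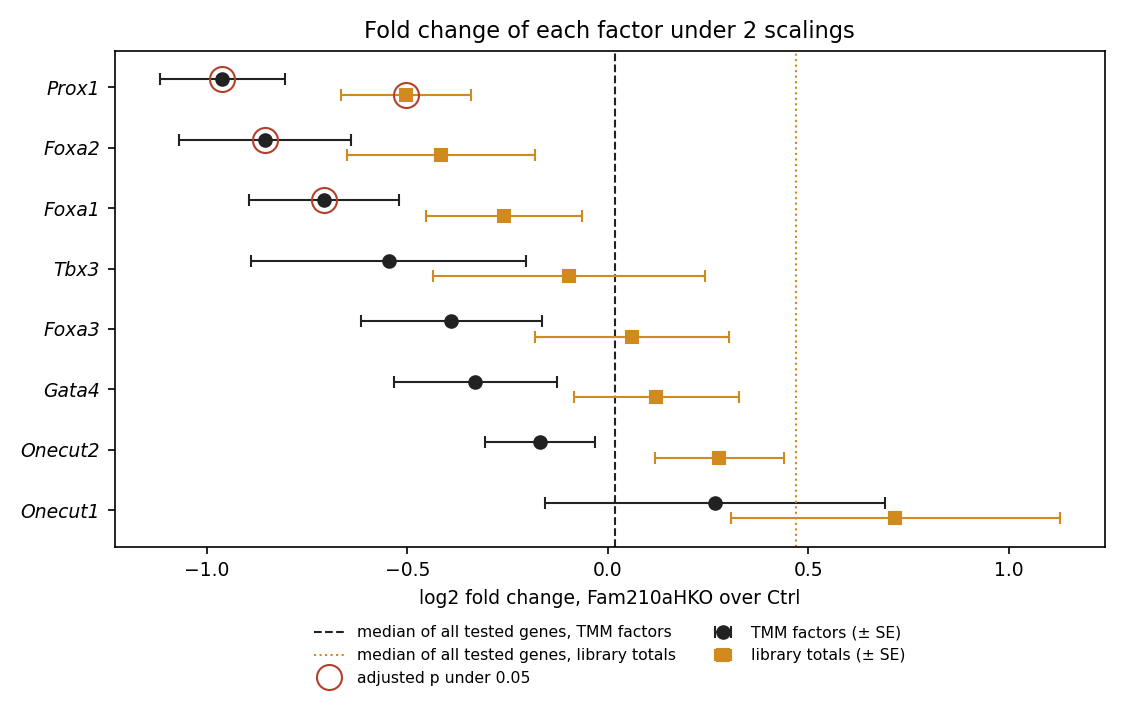
Log2 fold change of Fam210aHKO over Ctrl (horizontal axis) for each factor with TMM scaling (black) and with library totals (orange), with bars of ± 1 SE and a red ring where the adjusted p was under 0.05. Vertical lines mark the median of all tested genes under each scaling, 0.02 and 0.47. Prox1 is ringed under both scalings, Foxa1 and Foxa2 with TMM alone.

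Set against Hnf4a, the nuclear receptor at the centre of the hepatocyte network, 7 of the 8 factors had overlapping groups. Hnf4a was itself at 462 ± 62.0 CPM in Fam210aHKO and 790 ± 147 CPM in Ctrl, or -0.77 on the log2 scale (SE 0.192, adjusted p = 0.0119 by edgeR). That call ended with library totals (-0.33, adjusted p = 0.209), with totals computed without the 50 most abundant genes (-0.52, adjusted p = 0.0556), with the block on library totals (-0.31, adjusted p = 0.0863) and without Fam210aHKO replicate 2 (-0.67, adjusted p = 0.0605). The log2 ratio of Prox1 to Hnf4a per kilobase was -3.17 ± 0.103 in Fam210aHKO and -2.99 ± 0.377 in Ctrl, a difference of -0.19 (exact permutation p = 0.6). For Foxa1 the difference was 0.04 (exact permutation p = 0.9) and for Foxa2 it was -0.05 (exact permutation p = 0.7).

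Onecut2 was the factor whose ratio to Hnf4a did not overlap between the groups. The ratio was 0.0532, 0.0613 and 0.0457 in Fam210aHKO replicates 1 to 3, against 0.0352, 0.0379 and 0.0321 in Ctrl replicates 1 to 3. It was higher in Fam210aHKO in 3 of 3 same-numbered pairs, with a log2 difference of 0.60 and an exact permutation p of 0.1, the smallest possible here, and 0.65 after adjustment. The corresponding differences were 0.32 for Foxa3, 0.90 for Onecut1, 0.42 for Gata4 and 0.04 for Tbx3, all with overlapping groups. With TMM scaling the log2 fold change was -0.17 for Onecut2 and -0.77 for Hnf4a, and with library totals 0.28 and -0.33. How much of the Onecut2 difference lies in Hnf4a therefore depends on the scaling. Ratios to Hnf4a were not computed for all tested genes, so no background share stands beside this separation.

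**Figure D4:**
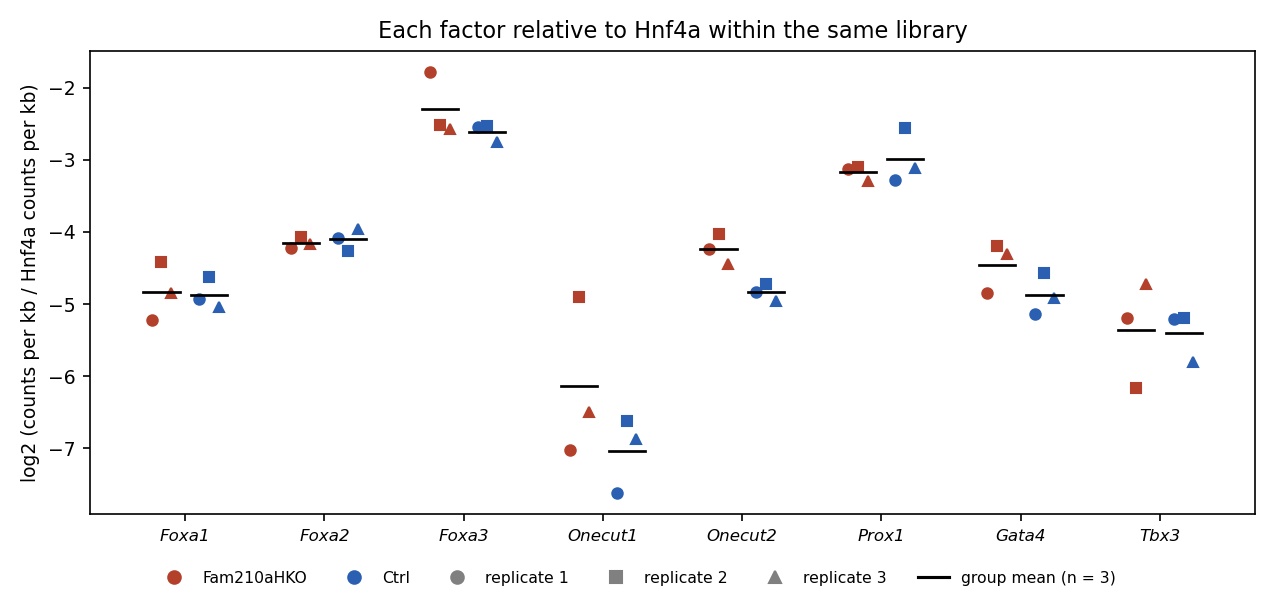
Log2 ratio of each of the 8 factors to Hnf4a per kilobase within each library, Fam210aHKO in red left of Ctrl in blue, symbols by replicate number and black bars at the group means. Onecut2 is the factor with groups apart, at -4.45 to -4.03 in Fam210aHKO and -4.96 to -4.72 in Ctrl.

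For each factor that fell, the protein-coding genes with the most similar profile were sought over the 6 libraries, by the root mean square difference of log2 CPM after centring, among 12299 genes. Nearest to Foxa1 were Mfsd4b3 at 0.0460 and Mocos at 0.0932 log2 units, beside a median of 0.496 over all genes compared. Nearest to Foxa2 were Abcb10 at 0.0761 and Col18a1 at 0.0823, beside a median of 0.562. Nearest to Prox1 were Ugt1a6b at 0.0699 and Prob1 at 0.0773, beside a median of 0.573, and Ugt1a6b shares exons with other genes of its cluster, so that its counts are uncertain. With 6 libraries in 2 groups, these likenesses rest largely on the difference between the groups.

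Other transcription factors of hepatocytes fell in part as well. Of 17 tested, 6 were lower and none higher by edgeR, with a median (log2) of -0.32. At an unadjusted p under 0.05, 8 were lower and 1 higher. Scaled by library totals, 2 were lower and 2 higher, with a median of 0.14 beside 0.47 over all tested genes. Nr1i3, the xenobiotic sensor CAR, was at 11.9 ± 2.70 CPM in Fam210aHKO and 36.8 ± 8.05 CPM in Ctrl, or -1.63 on the log2 scale (adjusted p = 0.000317). Cebpa, the C/EBP factor of mature hepatocytes, was at 136 ± 14.2 CPM in Fam210aHKO and 325 ± 78.7 CPM in Ctrl (-1.25, adjusted p = 0.000759). Rxra, the partner of many nuclear receptors, was at 272 ± 30.1 CPM in Fam210aHKO and 458 ± 93.1 CPM in Ctrl (-0.75, adjusted p = 0.0110), and it was not called with library totals (adjusted p = 0.222), with totals computed without the 50 most abundant genes (adjusted p = 0.0550), with the block on library totals (adjusted p = 0.124) or without Fam210aHKO replicate 2 (adjusted p = 0.0506).

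Textbook targets of the FOXA factors moved in both directions. Of 10 tested, 3 were lower and 2 higher by edgeR, with a median (log2) of -0.77. The lower count was 7 by DESeq2, 6 with the replicate block and 5 without Fam210aHKO replicate 3. Among all tested genes, 1953 of 13706 were lower by DESeq2, 2462 of 13706 with the block and 1802 of 13861 without that library. Ttr, which encodes the thyroid hormone carrier transthyretin, was at 2556 ± 388 CPM in Fam210aHKO and 6156 ± 1188 CPM in Ctrl (-1.27, adjusted p = 0.00651, edgeR). Pck1, for the gluconeogenic enzyme PEPCK, was at 1316 ± 328 CPM in Fam210aHKO and 3516 ± 804 CPM in Ctrl (-1.42, adjusted p = 0.00339). Serpina1a fell too (-1.56, adjusted p = 0.000452), though its near-identical gene copies make its counts uncertain. In the other direction, Igfbp1, for an insulin-regulated secreted binding protein of IGF, was at 1616 ± 232 CPM in Fam210aHKO and 272 ± 17.3 CPM in Ctrl (2.57, adjusted p = 9.84e-06). Afp, the fetal serum protein gene, was at 11.5 ± 3.11 CPM in Fam210aHKO and 1.95 ± 0.514 CPM in Ctrl (2.57, adjusted p = 9.08e-05).

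Of 9 tested textbook targets of ONECUT1, 7 were lower and none higher by edgeR (8 and 0 at an unadjusted p under 0.05), with a median (log2) of -0.86. The 7 include Foxa2, Hnf4a, Ttr and Pck1, which are described above, and with library totals 3 were lower and 1 higher. Pfkfb1, for the liver enzyme that sets fructose 2,6-bisphosphate, was at 20.3 ± 3.17 CPM in Fam210aHKO and 46.5 ± 11.2 CPM in Ctrl (-1.20, adjusted p = 0.00115, edgeR). Without Fam210aHKO replicate 2 or without Ctrl replicate 3, 4 of the targets were called lower.

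Of the WNT-responsive and pericentral genes, the programme that TBX3 is tied to in the adult lobule, 16 of 17 were tested, 6 were lower and 1 higher by edgeR, with a median (log2) of -0.10. Slc1a2, a glutamate transporter gene, was at 126 ± 7.28 CPM in Fam210aHKO and 217 ± 25.7 CPM in Ctrl (-0.78, adjusted p = 0.00238, and 0.110 with library totals). Cyp2e1, a pericentral cytochrome P450 gene, was at 3360 ± 593 CPM in Fam210aHKO and 10107 ± 1803 CPM in Ctrl (-1.59, adjusted p = 0.00363). Rnf43, a feedback inhibitor of WNT receptors, was at 11.9 ± 2.31 CPM in Fam210aHKO and 22.7 ± 3.25 CPM in Ctrl (-0.93, adjusted p = 0.00432, and 0.0620 with library totals). Tcf7 was the gene that rose, at 9.75 ± 0.807 CPM in Fam210aHKO and 3.27 ± 0.510 CPM in Ctrl (1.58, adjusted p = 0.000321). With library totals 1 gene of this list was lower and 3 were higher, with a median of 0.35, beside 0.47 over all tested genes.

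Of 12 listed genes of the hepatoblast and fetal liver 8 were tested, 5 were higher and none lower by edgeR, with a median (log2) of 2.05, and 5 were higher with the replicate block and 6 with library totals. H19, an imprinted fetal RNA, was at 110 ± 47.9 CPM in Fam210aHKO and 0.811 ± 0.556 CPM in Ctrl, 7.10 higher on the log2 scale (adjusted p = 7.33e-06). Igf2bp3, a fetal RNA-binding protein gene, was at 16.0 ± 1.38 CPM in Fam210aHKO and 3.76 ± 0.257 CPM in Ctrl (2.09). Of 12 genes of biliary fate 11 were tested, 4 were higher and none lower, with a median of 0.90. Scaled by library totals, 9 of these were higher. Among all tested genes 14% were higher with TMM scaling, 17.8% with the replicate block and 42.7% with library totals. Spp1, for the secreted matrix protein osteopontin, was at 200 ± 66.2 CPM in Fam210aHKO and 42.4 ± 8.75 CPM in Ctrl (2.24, adjusted p = 0.000116).

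Calls within the families of the 8 factors stand beside 27.5% called among all tested genes and 17% among transcription factor genes with TMM scaling. With library totals 42.7% of all tested genes were called higher. Of 44 forkhead genes 18 were tested, 2 were higher and 2 lower by edgeR, the lower pair being Foxa1 and Foxa2. Foxm1, a forkhead factor of dividing cells, was at 3.10 ± 0.771 CPM in Fam210aHKO and 0.276 ± 0.168 CPM in Ctrl, and Foxp4 was at 29.2 ± 4.76 CPM in Fam210aHKO and 16.9 ± 3.15 CPM in Ctrl. With library totals 7 forkhead genes were higher and none lower. The replicate block gave 3 higher and 6 lower, where 17.8% of all tested genes were higher and 18% lower. No forkhead gene was lower without Ctrl replicate 3, where 1563 of 14023 tested genes were lower. Without Ctrl replicate 2, 6 forkhead genes were lower, where 1834 of 14208 tested genes were lower. Of 17 T-box genes 4 were tested and none was called in either direction by edgeR with TMM scaling or by DESeq2. There was 1 higher at an unadjusted p under 0.05, and with library totals 3 were called higher. Prox1 was the gene called among 8 tested of the cut homeobox and Prospero families.

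Marker levels of other cell types were summed in each library. Among all tested genes 14% were called higher and 13.5% lower with TMM scaling, and 17.8% and 18% with the replicate block. Library totals called 42.7% of them higher and 6.33% lower. The summed level of cholangiocyte markers was 156 to 295 CPM in Fam210aHKO and 55.0 to 75.0 CPM in Ctrl, with 3 of 7 tested genes higher (6 with library totals). Spp1 made up most of this sum in every library, at 217, 127 and 256 CPM in Fam210aHKO replicates 1 to 3. It was at 49.7, 44.8 and 32.7 CPM in Ctrl replicates 1 to 3. Krt19 and Sox9 overlapped between the groups and were not called by edgeR. Markers of cycling cells summed to 78.6 to 132 CPM in Fam210aHKO and 4.35 to 12.9 CPM in Ctrl, with 6 of 6 higher. Those of monocyte-derived macrophages summed to 99.2 to 152 CPM in Fam210aHKO and 85.2 to 87.5 CPM in Ctrl (3 of 8 higher, 6 with library totals). Those of stellate cells summed to 576 to 731 CPM in Fam210aHKO and 463 to 527 CPM in Ctrl, with 2 of 10 higher, 7 with library totals and 1 to 3 when a library was left out, 1 of them without Ctrl replicate 1, Ctrl replicate 3 or Fam210aHKO replicate 1. Sinusoidal endothelial cells can express Gata4. Their markers summed to 272 to 426 CPM in Fam210aHKO and 396 to 515 CPM in Ctrl, with 2 of 10 lower. That count was 5 with the replicate block, 6 without Fam210aHKO replicate 3, 1 without Ctrl replicate 1, and 0 with library totals, with upper-quartile scaling and without each of the other 4 libraries. Of these markers 4 were lower at an unadjusted p under 0.05, and DESeq2 called 2 lower. Kupffer cell markers summed to 286 to 566 CPM in Fam210aHKO and 436 to 527 CPM in Ctrl (1 higher and 1 lower of 7, and 3 higher with library totals), and T, B and NK cell markers to 3.10 to 6.10 CPM in Fam210aHKO and 5.60 to 6.59 CPM in Ctrl, with none of 3 called by edgeR or DESeq2 and 1 lower at an unadjusted p under 0.05. In some alternatives 1 was called lower, among them the replicate block and leaving out Ctrl replicate 2 or Fam210aHKO replicate 3. Of the 8 hepatocyte markers 4 were lower by edgeR, 3 with library totals, 6 with the replicate block, 6 by limma-voom, 6 by the legacy quasi-likelihood test and 7 by DESeq2. No marker of these lists was at 0 in all libraries, and the part of these marker levels in the levels of the 8 factors was not tested.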

How the data were processed

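The deposited counts are whole numbers, 1 column per library, not normalized. The deposited FPKM values are per kilobase and per 1e+06 of a library size that, worked out from the values, was 81.6% to 86.3% of the count total in Fam210aHKO and 55.4% to 60.1% in Ctrl. They served as an alternative alone. Per the labels' protocols, TRIzol was used for RNA extraction and poly-T beads for mRNA selection. FastQC, Trimmomatic, STAR, featureCounts and DESeq2 with mm10 are named in the submitters' processing notes. The sources used here do not give their versions, the strand setting or the treatment of multimapping reads.

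Counts were fitted for all genes in edgeR 4.0.16 (R 4.3.3) with group as the factor, filterByExpr (minimum count 10), TMM factors and the quasi-likelihood test. P-values were adjusted by Benjamini-Hochberg over all 13706 tested genes and called under 0.05. The SE is the absolute log2 fold change over the square root of F, and the common biological coefficient of variation was 0.196. A count of 3 was 0.153 to 0.239 CPM. The fit was also run on simulated counts in which few genes changed, as many up as down. That run therefore says nothing about the choice of scaling. Ratios within a library used counts per kilobase with 0.5 added to each count. Exon overlaps came from GENCODE mouse release 21, which holds 54495 of the 54532 gene identifiers, 98.3% of them with the same coordinates.

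Deviations from the group means correlated at 0.205 to 0.287 between same-numbered libraries and at -0.173 to -0.0475 between the others. Same-numbered libraries may thus be paired, but no label states a pairing, and it was not tested. The main fit has no block.

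The 8 genes, the context lists and the tests were chosen with earlier results of these data known. Genes named beside the 8 were, per list, those called with the smallest p (up to 3 in the direction with more calls, up to 2 in the other; without calls, the 2 most abundant), and the 2 nearest profiles of each factor that fell. Hnf4a and Gata6 were named as partners in ratios, and Onecut3 was named after its values were seen. Alternatives were other scalings, filters and tools (DESeq2 1.42.0, limma-voom of limma 3.58.1, edgeR's legacy quasi-likelihood test), limma on log2(FPKM + 1) and log2(FPKM + 0.1), protein-coding genes alone, a replicate block and leaving out each library.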

Additional observations from a re-analysis of the deposited data

How the results depend on the processing

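Of the 8 factors, Prox1 kept its call and direction in all 20 alternatives, Foxa2 in 17 and Foxa1 in 15. The count of factors called lower, 3 with TMM scaling, was 1 with library totals and 1 with the replicate block on library totals, an alternative chosen after seeing the data, and 1 to 4 when each library was left out. Library totals gave log2 fold changes of -0.26 for Foxa1, -0.42 for Foxa2, 0.060 for Foxa3, 0.28 for Onecut2 and 0.12 for Gata4. Totals without the 50 most abundant genes gave -0.45 for Foxa1 and 0.086 for Onecut2. The replicate block on TMM scaling called Foxa3 lower (-0.44) and ended no call among the 8, and on library totals it gave -0.27 for Foxa1, -0.37 for Foxa2, 0.011 for Foxa3, 0.29 for Onecut2 and 0.11 for Gata4. Leaving out each library in turn gave -0.80 to -0.57 for Foxa1, -1.06 to -0.65 for Foxa2, -0.73 to -0.19 for Foxa3, -0.40 to 0.58 for Onecut1 and -1.01 to -0.19 for Tbx3. It gave log2 ratio differences of -0.071 to 0.29 for Foxa1 over Foxa2, -0.60 to 0.17 for Foxa1 over Foxa3, -0.74 to 0.22 for Onecut2 over Onecut1, and, over Hnf4a, -0.17 to 0.23 for Foxa1, -0.14 to 0.018 for Foxa2, -0.33 to 0.025 for Prox1 and -0.28 to 0.44 for Tbx3. Of 145 tested genes in the context and cell type lists 26 were lower and 25 higher, against 11 and 54 with library totals, 17 and 42 with totals without the most abundant genes, 18 and 63 with the block on library totals, and 16 to 32 and 23 to 28 when a library was left out. Across all genes, 1922 were higher and 1852 lower, against 5846 and 868 with library totals. The causes were not tested. Onecut1 had 39 to 164 counts per library.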
